A study of Mus musculus with 4 samples.

Results

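The genes described here are those of the DEAD and DEAH box helicases, RNA-dependent ATPases that open short RNA duplexes and remodel complexes of RNA with protein. The members were the symbols in the count files that read Ddx or Dhx, then a number and at most 1 letter. Of 53 such symbols 5 (Ddx4, Ddx6, Ddx58, Dhx58 and Ddx3y) were left out by the rule, which leaves 48 of the 53677 gene symbols counted. The RNA came from mouse germinal vesicle (GV) oocytes, arrested in meiotic prophase and taken 48 h after females received 7.5 IU of the gonadotropin PMSG. There were 2 control libraries (Ctrl) and 2 with a knockdown of Ell3 (Ell3 KD), each made from 5 oocytes with Smart-seq2, which copies polyadenylated RNA from few cells into full-length cDNA. Both groups received the same PMSG treatment. The strain, the age of the females, the way the knockdown was made and the use of separate animals for the libraries of a group are not given in the sources used here. Hence p-values measure only how these libraries vary, and that variation may be technical. The comparison of Ell3 KD with Ctrl was made by the submitters to look for effects on transcription that bear on meiosis.

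Helicases of this family bind RNA and ATP through a pair of linked domains and are named after the letters of a conserved ATP-binding motif, motif II. Single members serve nearly every step in the life of an RNA: transcription, splicing, export through the nuclear pore, ribosome assembly, translation and decay. A fully grown oocyte has largely stopped transcription and lives on stored maternal mRNA, so that the mRNAs of these helicases are themselves part of the store. The coding sequences translate to the DEAD form of motif II in 23 members and to the DEAH form in 8, while 12 carry another form and 5 (Ddx1, Ddx11, Ddx24, Ddx60 and Dhx32) gave no match to the pattern searched. The 60-base coding stretches below, from GENCODE M21 transcripts, show the motif in members on which the results turn, with its codons in capitals.
Ddx19a: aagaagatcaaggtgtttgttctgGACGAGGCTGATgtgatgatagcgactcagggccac
Ddx3x: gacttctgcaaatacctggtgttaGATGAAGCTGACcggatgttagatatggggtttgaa
Ddx28: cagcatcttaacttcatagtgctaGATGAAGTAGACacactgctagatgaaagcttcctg
Dhx30: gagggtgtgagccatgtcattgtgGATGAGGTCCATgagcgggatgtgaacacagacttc
Dhx34: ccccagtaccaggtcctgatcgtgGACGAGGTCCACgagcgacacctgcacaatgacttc
Dhx35: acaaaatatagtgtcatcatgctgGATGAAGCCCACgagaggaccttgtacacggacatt
The capitals of Ddx19a and Ddx3x encode the DEAD form and those of Dhx35 the DEAH form. Ddx28, Dhx30 and Dhx34 each differ from both forms in the third codon.

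The files held between 45131278 and 89632815 counts per library, and both Ell3 KD libraries were deeper than both Ctrl libraries. Levels are given as CPM, counts per 1e+06 library counts after TMM scaling in edgeR. In the shallowest library a gene with no count lay below 0.0665 CPM, taking 3 counts as the limit. Such limits hold for counting error alone, because PCR copies were not marked by molecular identifiers. Ell3, the targeted elongation factor gene, stood at 8.12 and 9.79 CPM in Ctrl and at 2.88 and 2.80 CPM in Ell3 KD, 3.15-fold lower (log2 scale: -1.66 ± 0.14 SE, edgeR adjusted p = 6.04e-10). The 12 oocyte markers, such as Zp3 and Gdf9, were all detected and summed to between 23208 and 24185 CPM. Of these, 3 were called higher: Dppa3 (log2 fold change 0.49), Oosp1 (0.46) and Ooep (0.40). The 4 called lower were Nobox (-0.27), Nlrp5 (-0.23), Gdf9 (-0.20) and Zp1 (-0.12). The 15 cumulus and granulosa markers summed to 54.6 and 53.0 CPM in Ctrl and to 49.4 and 51.8 CPM in Ell3 KD, with Amh, Amhr2, Foxl2 and Gatm at 0 counts in both Ctrl libraries and at 9 or fewer in Ell3 KD. Of the 9 tested, Inha (1.04 ± 0.137 against 2.33 ± 0.209 CPM) and Ptgs2 (0.185 ± 0.168 against 1.32 ± 0.152 CPM) were called higher and Nr5a2 (26.4 ± 0.249 against 22.4 ± 0.135 CPM) lower. The theca and stroma markers summed to between 64.1 and 66.5 CPM in Ctrl and between 50.8 and 53.6 CPM in Ell3 KD, nearly all of it Pecam1, which was called lower, while Dcn was called higher. The blood markers summed to 2.76 and 3.34 CPM in Ctrl and to at most 1.43 CPM in Ell3 KD, with both tested called lower and all 4 hemoglobin genes found at 0 counts in every library. The part of other cells in the results was not tested. In libraries of pooled oocytes, less RNA per oocyte cannot be told apart from a smaller share of the oocytes that carry it.

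Every member had a count in every library, and 47 of the 48 passed the filter on low counts. Ddx43, known from testis and germ cells, was not tested: the Ctrl libraries held 6 and 4 of its counts and the Ell3 KD libraries 5 and 7. Per kilobase of transcript, the helicases stood above the typical gene: the median over the 47 tested members was 9.78 CPM per kb, against 2.96 CPM per kb over 17311 genes tested that have an annotated length. Ddx24, a nucleolar helicase of ribosome assembly, was the highest at 98.2 ± 1.03 CPM per kb in Ctrl and 91.0 ± 1.97 CPM per kb in Ell3 KD (mean ± SD, n = 2 per group, as for all values with ± that are not called SE). Ddx56, which also acts in ribosome assembly, followed at 83.6 ± 1.94 and 85.7 ± 1.92 CPM per kb, values about as far apart as the libraries within a group. The mRNA export helicase gene Ddx19a stood at 61.7 ± 1.54 in Ctrl and 83.2 ± 1.52 CPM per kb in Ell3 KD, and Ddx28, a helicase of the mitochondrial ribosome, at 73.9 ± 0.958 and 62.0 ± 0.112 CPM per kb. These 2 genes therefore changed places in the order of levels: Ddx28 was above Ddx19a in both Ctrl libraries and below it in both Ell3 KD libraries. The 5 highest members, with Ddx18 as the fifth, held 42.1% of the summed level of the family. At the low end of the tested members were Dhx37 (0.397 CPM per kb over the 4 libraries), Ddx60 (0.617), Ddx23 (0.715) and Ddx54 (0.900). All members from rank 36 (Ddx51) down lay below the median of all genes tested.

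**Figure D1:**
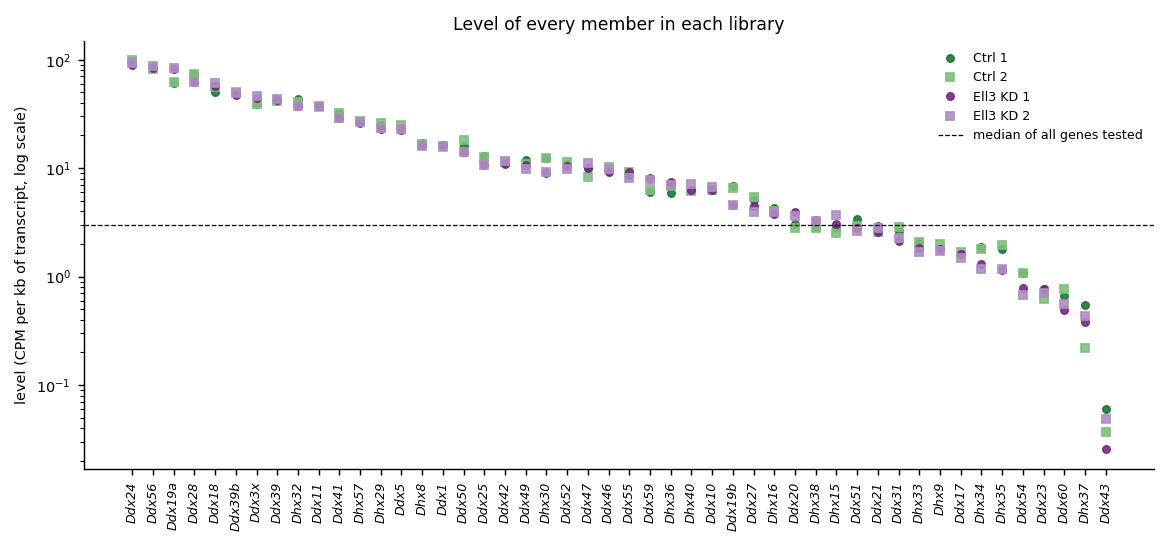
Level of each of the 48 helicase genes in each of the 4 libraries, in CPM per kb of transcript on a log axis, ordered by the mean. Points are libraries and the dashed line is the median of all genes tested (2.96 CPM per kb). Levels run from 94.6 CPM per kb for Ddx24 down to 0.0427 CPM per kb for the untested Ddx43.

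Between the groups, 9 of the 47 tested helicase genes rose and 15 fell at an edgeR adjusted p under 0.05, and 23 did not pass the test. The same test called 21.1% of 17879 genes higher and 21.8% lower, 42.9% in all, against 19.1% and 31.9% of the members. Calls depend on depth: among genes at 5 CPM or more 52.5% were called, and 21 of the 42 members at that level were, which is 50.0%. The share of members called was thus close to that of genes of like abundance, with 9 higher and 12 lower among them against 27.2% higher and 25.3% lower of all such genes. None of the members changed 2-fold. Log2 fold changes (Ell3 KD against Ctrl) lay between -0.69 and 0.43, with a median of -0.07 over the 47 members against -0.0024 over all genes tested. Both Ell3 KD libraries lay above both Ctrl libraries for 11 members (23.4%) and below them for 23 (48.9%), against 35% and 35.7% of all genes tested. The 48 genes together took 0.289% and 0.292% of each Ctrl library's counts, against 0.278% and 0.281% in Ell3 KD, groups that did not overlap (exact permutation test, two-sided, p = 0.333, the smallest that 2 against 2 libraries allow).

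The log2 fold change had weak negative correlations with GC content and length of the transcript. Over the 47 members its Pearson correlation was -0.289 with GC content and -0.202 with log2 length, as a description over genes that share 4 libraries. Over 9539 genes at 5 CPM or more these were -0.0900 and -0.213. Members that rose had a median GC content of 48.0%, and members that fell one of 52.5%. With each library's trend on GC content and length taken out together, a setting added once the data had been seen, the median of the members was 0.0008 and 10 were called higher and 10 lower. With that trend removed 18 of the 24 calls were kept and Ddx24, Ddx27, Ddx31, Ddx41, Ddx47 and Dhx29 were lost, while Ddx11 and Ddx39 were added. With a coefficient of variation of 0.2 assumed between libraries, in place of the common estimate of 0.0421 from these data, 0 of the 24 members called remained called, against 861 higher and 1103 lower over all genes. DESeq2 kept 17 of the 24 calls and lost Ddx27, Ddx31, Ddx47, Ddx60, Dhx15, Dhx36 and Dhx38. Apart from the assumed spread, 11 of the 24 calls were kept in all 11 alternatives: those of Ddx19a, Ddx59 and Ddx3x, which rose, and of Ddx19b, Ddx25, Ddx28, Ddx50, Dhx30, Dhx32, Dhx34 and Dhx35, which fell. For all 23 members that did not pass, the 95% interval stayed inside a 2-fold change either way.

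**Figure D2:**
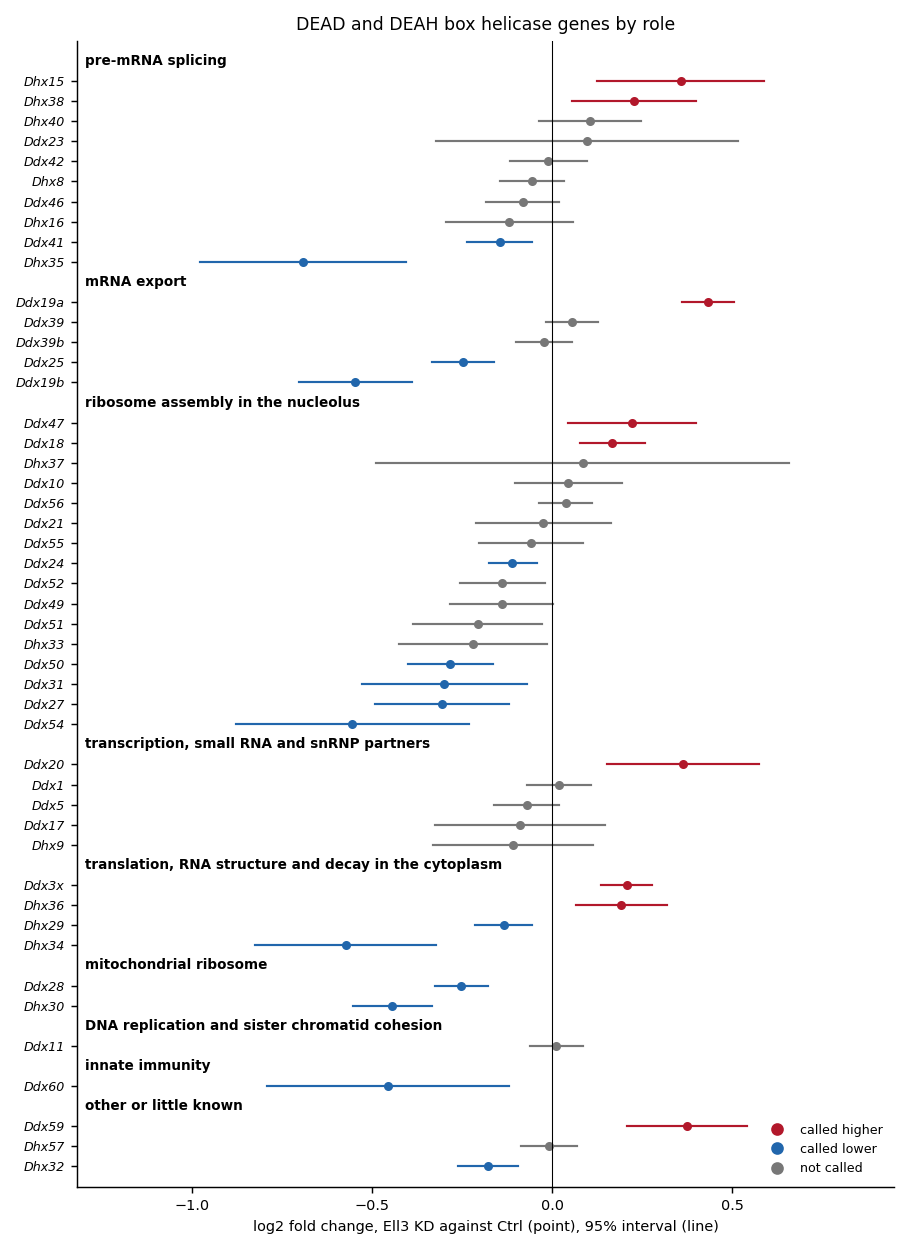
Log2 fold change of the 47 tested helicase genes, grouped by role, with 95% intervals from the edgeR fit. Points to the right of 0 are higher in Ell3 KD. The highest point is Ddx19a (0.43) and the lowest Dhx35 (-0.69), and the widest interval is that of Dhx37, whose Ctrl libraries held 120 and 52 counts.

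**Figure D3:**
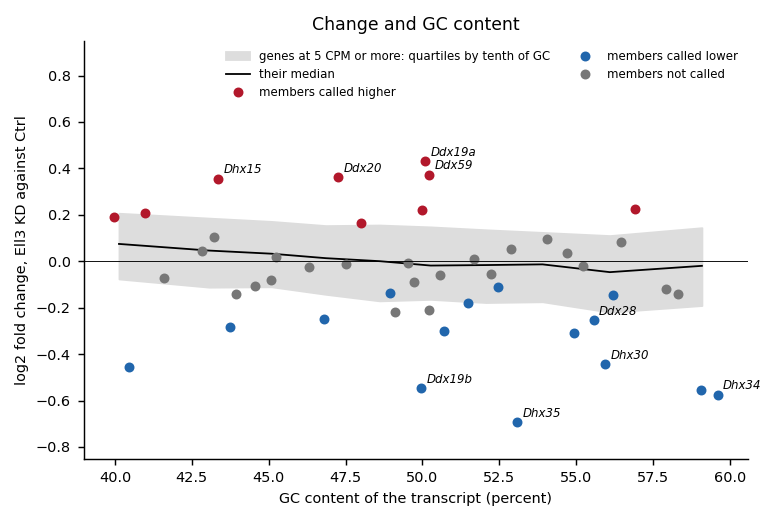
Log2 fold change against the GC content of the transcript for the 47 tested helicase genes (points), with the median and quartiles of 9539 genes at 5 CPM or more in 10 bins of GC content. The median line falls from 0.07 in the bin lowest in GC to -0.02 in the highest bin. Ddx19a and Ddx19b lie at 50.1% and 50.0% GC.

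The mRNA export helicases showed the largest rise and one of the largest falls of the family, in a pair of near-identical neighbours. Ddx19a and Ddx19b encode relatives of the yeast helicase Dbp5, which acts on the outer face of the nuclear pore, with its activator Gle1 and the nucleoporin Nup214, to strip export proteins from mRNA. The genes lie next to each other on the minus strand of chromosome 8 of GRCm38, Ddx19a from 110974996 to 110997800 and Ddx19b from 111003188 to 111031751. Ddx19a stood at 154.3 and 159.8 CPM in Ctrl and at 209.2 and 214.7 CPM in Ell3 KD, 1.35-fold higher (log2 fold change 0.43 ± 0.04 SE, edgeR adjusted p = 4.68e-10). Ddx19b stood at 21.2 and 20.2 CPM in Ctrl and at 14.1 and 14.2 CPM in Ell3 KD, 1.46-fold lower (log2 fold change -0.55 ± 0.08 SE, edgeR adjusted p = 2.30e-06). In neither gene did the groups overlap, and each group's libraries lay close together. The ratio of Ddx19a to Ddx19b counts, which does not depend on library scaling, was 7.27 and 7.91 in Ctrl. In Ell3 KD it was 14.8 and 15.1, a 1.97-fold difference of the means (exact permutation test, two-sided, p = 0.333, the smallest possible). Ddx19b made up 11.7% of the pair's counts in Ctrl but 6.27% in Ell3 KD, and the summed level of the pair went from 177.8 ± 3.20 to 226.1 ± 3.96 CPM. Both calls were kept in every alternative except the assumed spread.

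The coding sequences of the pair are 93.2% identical over 1434 aligned bases, with an identical run of 275 bases, and motif II lies in a stretch that is the same in both. The 90-base stretch with the most differences, where 25 bases differ (capitals), shows what sets reads of the paralogs apart. It spans coding bases 442 to 531 of Ddx19a and 490 to 579 of Ddx19b.
Ddx19a: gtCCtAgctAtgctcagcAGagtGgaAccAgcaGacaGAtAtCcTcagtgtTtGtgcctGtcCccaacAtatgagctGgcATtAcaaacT
Ddx19b: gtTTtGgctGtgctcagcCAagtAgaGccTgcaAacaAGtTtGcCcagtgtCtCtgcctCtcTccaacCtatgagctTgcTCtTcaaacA
Of all 150-base windows of the Ddx19a transcript 15.4% occur unchanged in transcripts of Ddx19b, and 12.5% of those of Ddx19b occur in Ddx19a. The labels do not say how reads from such windows were credited, so the counts of the pair are less certain there. The promoters, from RefSeq on GRCm38.p6, are printed because the genes moved in opposite directions. Capitals mark matches to the 6 motifs searched on both strands.
Ddx19a, chr8:110997774-110998073, minus strand: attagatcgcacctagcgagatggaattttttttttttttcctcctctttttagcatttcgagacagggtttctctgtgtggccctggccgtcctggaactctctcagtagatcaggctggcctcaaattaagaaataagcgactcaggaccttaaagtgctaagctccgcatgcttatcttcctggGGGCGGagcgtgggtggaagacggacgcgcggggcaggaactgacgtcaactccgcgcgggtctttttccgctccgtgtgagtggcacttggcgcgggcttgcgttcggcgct
Ddx19b, chr8:111031702-111032001, minus strand: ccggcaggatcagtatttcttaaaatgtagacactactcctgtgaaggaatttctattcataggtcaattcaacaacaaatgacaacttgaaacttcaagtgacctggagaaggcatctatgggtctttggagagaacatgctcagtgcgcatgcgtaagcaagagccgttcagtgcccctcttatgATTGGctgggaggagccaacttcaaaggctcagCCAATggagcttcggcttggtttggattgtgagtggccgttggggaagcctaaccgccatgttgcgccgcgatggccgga
The Ddx19a window holds 1 match to GGGCGG, and the Ddx19b window holds 2 matches to CCAAT and none to GGGCGG. A second start site of Ddx19b, at chr8:111027721-111028020, has 1 match to GGGCGG. The deposited counts are per gene and do not separate its start sites. No window of the pair held an exact match to the other motifs searched. These were TATAAA, the ETS motif CCGGAAG, the E-box CACGTG and 1 form of the NRF1 motif. Near matches were not counted, and the printed Ddx19b window holds a stretch that differs from that NRF1 form in 1 base. The search therefore does not show that the pair lacks NRF1 sites. The promoter table held 55 windows for 44 of the members. Of these, 38.2% matched CCGGAAG, against 8.9% of all 32851 windows and 15.3% of the 15042 windows of genes tested. That motif was in a window of 19 of the 44 members. Among them were 2 of the 8 members called higher and 6 of the 15 called lower that had a window, and the others were members not called. GGGCGG matched 58.2% of the members' windows against 56.1% for genes tested, and TATAAA 9.1% against 8.5%.

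**Figure D4:**
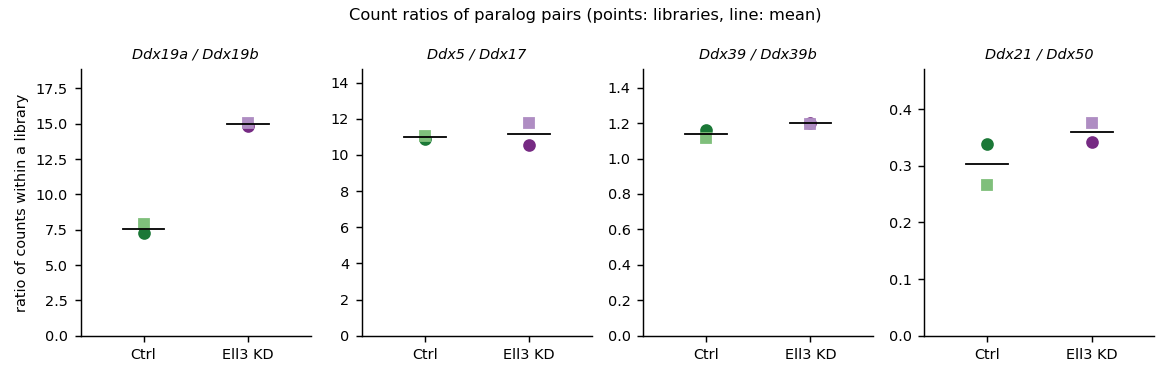
Ratio of the counts of each paralog pair within each library. Points are libraries, lines are group means, circles replicate 1 and squares replicate 2. The Ddx19a to Ddx19b ratio lies at 7.27 and 7.91 in Ctrl and at 14.8 and 15.1 in Ell3 KD, while the ratios of Ddx5 to Ddx17 overlap between the groups.

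The other export helicases moved less. Ddx39 (now called Ddx39a) and Ddx39b encode near relatives of yeast Sub2 that load export factors onto spliced mRNA. Ddx39 stood at 158.9 and 158.4 CPM in Ctrl and at 162.3 and 167.3 CPM in Ell3 KD, and did not pass the test (log2 fold change 0.05, 95% interval -0.02 to 0.13, edgeR adjusted p = 0.231). With the GC and length trend removed it was called higher, with a value of 0.16 (edgeR adjusted p = 3.68e-04). For Ddx39b the values were 136.9 and 142.2 CPM against 134.9 and 140.0 CPM, which overlapped (95% interval -0.10 to 0.06, edgeR adjusted p = 0.666). Ddx25, a gonadotropin-regulated helicase studied in the testis for its part in export and storage of mRNA, stood at 89.6 and 87.1 CPM in Ctrl and at 73.8 and 74.9 CPM in Ell3 KD. It fell by 0.25 ± 0.04 SE on the log2 scale (edgeR adjusted p = 3.44e-05). Of the partners of these helicases, singled out after their values were seen, the Dbp5 activator gene Gle1 fell by 0.13 ± 0.04 SE (edgeR adjusted p = 0.00359). Without Ctrl replicate 1 that call was lost (edgeR adjusted p = 0.0930), as it was with the GC and length trend removed (edgeR adjusted p = 0.295). The export receptor gene Nxf1 fell by 0.11 (edgeR adjusted p = 0.0116), a call lost without Ctrl replicate 1 (edgeR adjusted p = 0.121), Ell3 KD replicate 1 (edgeR adjusted p = 0.0667) or Ell3 KD replicate 2 (edgeR adjusted p = 0.0838). Nup214 did not pass (0.05, edgeR adjusted p = 0.239), though with the GC and length trend removed it was called at 0.18 (edgeR adjusted p = 3.48e-05). Other export partners, also singled out, moved both ways. Alyref (0.92 ± 0.14 SE, edgeR adjusted p = 7.09e-06), Alyref2 (0.36, edgeR adjusted p = 9.79e-04), Sarnp (0.39, edgeR adjusted p = 3.56e-05) and Thoc1 (0.14, edgeR adjusted p = 0.00695) rose. Alyref was low, at 3.92 and 4.48 CPM in Ctrl and 7.04 and 8.89 CPM in Ell3 KD. The Ctrl libraries lay apart for Sarnp (31.3 and 38.5 CPM) and Alyref2 (17.5 and 14.5 CPM). Thoc2 fell by 0.22 (edgeR adjusted p = 5.01e-05), and Thoc5 did not pass (0.04, edgeR adjusted p = 0.644). Alternative fits are not given here for these other partners.

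Both helicases of the mitochondrial ribosome fell, a group of only 2 genes, where 21.8% of all genes tested were called lower. Ddx28 and Dhx30 act in RNA granules of mitochondria, where the large subunit of the mitochondrial ribosome is put together. Ddx28 stood at 168.6 and 165.5 CPM in Ctrl and at 140.0 and 140.4 CPM in Ell3 KD, a fall of 0.25 ± 0.04 SE on the log2 scale (edgeR adjusted p = 2.98e-06). Dhx30 went from 46.7 and 47.7 CPM to 34.4 and 35.0 CPM, 1.36-fold lower (log2 fold change -0.44 ± 0.05 SE, edgeR adjusted p = 2.27e-07). The difference between the groups was many times the spread between the libraries of a group in both genes. Their transcripts held 55.6% and 55.9% GC. With the GC and length trend removed both genes were still called, at smaller changes of -0.18 and -0.32 (edgeR adjusted p = 8.62e-05 and 2.56e-05).

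Of the 4 helicases with roles in translation, RNA structure and decay in the cytoplasm, 2 rose and 2 fell. Over all genes 42.9% of those tested were called, and 52.5% of those at 5 CPM or more. Ddx3x, an abundant helicase that helps ribosomes through structured leaders, stood at 184.6 and 184.0 CPM in Ctrl and at 209.1 and 216.2 CPM in Ell3 KD, a rise of 0.21 ± 0.03 SE (edgeR adjusted p = 2.96e-05). Dhx36, which unfolds G-quadruplexes, stood at 33.3 and 38.3 CPM in Ctrl and at 42.2 and 39.5 CPM in Ell3 KD (log2 fold change 0.19 ± 0.06 SE, edgeR adjusted p = 0.0139). The call of Dhx36 was lost without Ctrl replicate 1 and without Ell3 KD replicate 1, fits that leave a single library in a group. Dhx34, a helicase of nonsense-mediated decay, which removes mRNAs with early stop codons, was the member at 5 CPM or more that fell most. It stood at 8.14 and 7.80 CPM in Ctrl and at 5.66 and 5.01 CPM in Ell3 KD, 1.49-fold lower (log2 fold change -0.57 ± 0.12 SE, edgeR adjusted p = 4.64e-04). Dhx29, which binds the small ribosomal subunit during scanning, stood at 117.3 and 121.3 CPM in Ctrl and at 107.4 and 109.9 CPM in Ell3 KD, a fall of 0.14 ± 0.04 SE (edgeR adjusted p = 0.00628). Without Ell3 KD replicate 1 that call was lost (edgeR adjusted p = 0.0984), and it was also lost with the GC and length trend removed (edgeR adjusted p = 0.186).

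Among the 10 helicases of pre-mRNA splicing, 2 rose, 2 fell and 6 did not pass, beside 42.9% called of all genes tested. Dhx35, a DEAH box protein found in catalytic spliceosomes, had the lowest log2 fold change of the family. It stood at 5.89 and 6.46 CPM in Ctrl and at 3.79 and 3.85 CPM in Ell3 KD, 1.62-fold lower (-0.69 ± 0.14 SE, edgeR adjusted p = 2.41e-04), and its mean over the libraries was just under 5 CPM. Ddx41, a splicing helicase also studied as a sensor of foreign DNA, stood at 70.5 and 71.4 CPM in Ctrl and at 64.4 and 63.8 CPM in Ell3 KD, and fell by 0.15 ± 0.04 SE (edgeR adjusted p = 0.00888). Its call was lost without Ell3 KD replicate 1 (edgeR adjusted p = 0.0572), without Ell3 KD replicate 2 (edgeR adjusted p = 0.0824) and with the GC and length trend removed (edgeR adjusted p = 0.127). Dhx15, which takes spliceosomes apart and is also at work in ribosome assembly, stood at 8.40 and 7.52 CPM in Ctrl and at 9.22 and 11.2 CPM in Ell3 KD. The groups did not overlap, but the Ell3 KD libraries lay far apart (log2 fold change 0.36 ± 0.11 SE, edgeR adjusted p = 0.0125). The rise was not called without Ctrl replicate 2 (edgeR adjusted p = 0.0809) or Ell3 KD replicate 2 (edgeR adjusted p = 0.239), nor by DESeq2 (adjusted p = 0.0730). Dhx38, which drives the second splicing step, stood at 12.8 and 12.5 CPM in Ctrl and at 15.0 and 14.6 CPM in Ell3 KD (log2 fold change 0.23 ± 0.08 SE, edgeR adjusted p = 0.0311). The libraries of each group lay close together, but the call was lost whichever library was left out. The log2 fold change was then 0.24 without Ctrl replicate 1 and 0.21 without Ctrl replicate 2. It was 0.21 without Ell3 KD replicate 1 and 0.25 without Ell3 KD replicate 2. The 6 that did not pass were Dhx40, Ddx23, Ddx42, Dhx8, Ddx46 and Dhx16. Their log2 fold changes lay between -0.12 and 0.10.

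The largest role group, 16 helicases of ribosome assembly in the nucleolus, had 5 falls and 2 rises. These 7 calls among 16 stand beside 42.9% called of all genes tested and 52.5% of those at 5 CPM or more. Its median log2 fold change was -0.13. Ddx27 stood at 13.7 and 14.7 CPM in Ctrl and at 12.1 and 10.8 CPM in Ell3 KD (-0.31 ± 0.09 SE, edgeR adjusted p = 0.00754), and Ddx31 at 8.56 and 9.28 against 7.02 and 7.49 CPM (-0.30 ± 0.11 SE, edgeR adjusted p = 0.0310). The groups did not overlap in either gene, but both calls were lost in some fits that left a single library in a group. The call of Ddx27 was lost without Ctrl replicate 2 (log2 fold change -0.26) or Ell3 KD replicate 2 (-0.23). That of Ddx31 was lost without Ctrl replicate 2 (log2 fold change -0.24), Ell3 KD replicate 1 (-0.25) or Ell3 KD replicate 2 (-0.34). In the last of these fits the change was no smaller than with all libraries. DESeq2 called neither (adjusted p = 0.0598 and 0.150). Ddx54, also a low gene at 4.62 and 4.66 CPM in Ctrl and 3.36 and 2.92 CPM in Ell3 KD, had a log2 fold change of -0.56 ± 0.16 SE (edgeR adjusted p = 0.00576). Without Ell3 KD replicate 2 it was not called (edgeR adjusted p = 0.0629). Ddx24, the highest of all members, fell by 0.11 ± 0.03 SE, from 298.7 and 303.2 CPM to 274.4 and 283.0 CPM (edgeR adjusted p = 0.00719). This fall was not called without Ell3 KD replicate 1 (edgeR adjusted p = 0.145), and with the GC and length trend removed it was -0.02 (edgeR adjusted p = 0.614).

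Ddx21 and Ddx50 are neighbouring nucleolar paralogs on chromosome 10, and their coding sequences are 72.0% identical. Ddx50 stood at 40.9 and 45.7 CPM in Ctrl and at 35.8 and 35.4 CPM in Ell3 KD, a fall of 0.28 ± 0.06 SE (edgeR adjusted p = 2.87e-04). Ddx21, at 13.8 and 12.2 CPM in Ctrl and 12.3 and 13.3 CPM in Ell3 KD, overlapped between the groups (95% interval -0.21 to 0.16, edgeR adjusted p = 0.845). In this pair the ratio of Ddx21 to Ddx50 counts was 0.339 and 0.266 in Ctrl and 0.342 and 0.376 in Ell3 KD. The Ctrl libraries differed more from each other than the nearest libraries of the groups did. The genes that rose were Ddx18 and Ddx47. Ddx18 stood at 112.8 and 125.7 CPM in Ctrl and at 130.4 and 137.4 CPM in Ell3 KD (log2 fold change 0.17 ± 0.04 SE, edgeR adjusted p = 0.00337), and was not called without Ctrl replicate 1 (edgeR adjusted p = 0.111). Of its 150-base windows 26.5% occur in 2 other transcripts, one of them of the gene Gm16433, whose counts were 169 and 197 (Ctrl) and 393 and 310 (Ell3 KD). The counts of Ddx18 are less certain for that reason. Ddx47 stood at 17.5 and 14.5 CPM in Ctrl and at 17.6 and 19.7 CPM in Ell3 KD, with 1 Ctrl library almost level with 1 Ell3 KD library (0.22 ± 0.09 SE, edgeR adjusted p = 0.0413). Its call was lost without Ctrl replicate 2, where the change was 0.09 (edgeR adjusted p = 0.505), and without Ell3 KD replicate 2 (edgeR adjusted p = 0.295). The 9 that did not pass were Ddx56, second in the order of levels, Ddx10, Ddx21, Ddx49, Ddx51, Ddx52, Ddx55, Dhx33 and Dhx37, with log2 fold changes between -0.22 and 0.08.

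Helicases that work with transcription factors, small RNA processing and snRNP assembly mostly did not pass the test, with 1 rise among 5. Most genes tested did not pass either, since 42.9% were called. Ddx20 (also called Gemin3), a helicase of the SMN complex that loads Sm rings onto snRNAs, stood at 8.93 and 8.17 CPM in Ctrl and at 11.5 and 10.5 CPM in Ell3 KD. It rose by 0.36 ± 0.10 SE (edgeR adjusted p = 0.00546), a call lost without Ell3 KD replicate 1 (edgeR adjusted p = 0.0846). Its partner Smn1, singled out after its value was seen, rose by 0.17 ± 0.03 SE (edgeR adjusted p = 2.22e-04). Gemin6, also singled out, rose by 0.22 ± 0.04 SE (edgeR adjusted p = 2.37e-04), while Gemin2, Gemin4, Gemin5 and Gemin7 were not called. Ddx5 and Ddx17, paralogs that act as coregulators of transcription and with the microRNA processor Drosha, share 71.2% of aligned coding bases, and neither passed the test. Ddx5 stood at 82.8 and 88.1 CPM in Ctrl and at 80.4 and 82.2 CPM in Ell3 KD (95% interval -0.16 to 0.02, edgeR adjusted p = 0.188). Ddx17 stood at 7.59 and 7.98 CPM against 7.63 and 6.98 CPM (95% interval -0.33 to 0.15, edgeR adjusted p = 0.559). There were 10.9 and 11.04 counts of Ddx5 for each count of Ddx17 in Ctrl and 10.5 and 11.8 in Ell3 KD, which overlapped. Dhx9 and Ddx1 also did not pass, at 8.77 ± 0.519 against 8.13 ± 0.234 CPM and at 77.1 ± 1.97 against 78.0 ± 1.27 CPM. Ddx1 belongs to the tRNA ligase complex, and partners of it moved both ways: Fam98b rose by 0.55 ± 0.07 SE (edgeR adjusted p = 1.21e-06) and, singled out after their values were seen, Rtraf rose by 0.24 ± 0.04 SE (edgeR adjusted p = 3.16e-05) and the ligase gene Rtcb fell by 0.16 ± 0.03 SE (edgeR adjusted p = 4.27e-04).

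Of the remaining members 1 rose, 2 fell and 2 did not pass, beside 42.9% called of all genes tested. Ddx59, a little-known helicase linked to ciliary disease, stood at 13.0 and 13.7 CPM in Ctrl and at 17.7 and 16.9 CPM in Ell3 KD, 1.30-fold higher (log2 fold change 0.37 ± 0.08 SE, edgeR adjusted p = 5.39e-04). Dhx32 fell by 0.18 ± 0.04 SE, from 129.6 and 120.3 CPM to 110.4 and 110.5 CPM (edgeR adjusted p = 8.71e-04). Ddx60, an interferon-induced helicase of antiviral defence, stood at 3.98 and 4.56 CPM in Ctrl and at 2.92 and 3.33 CPM in Ell3 KD (-0.46 ± 0.16 SE, edgeR adjusted p = 0.0257). Its call was lost without Ctrl replicate 2 (edgeR adjusted p = 0.146), without Ell3 KD replicate 1 (edgeR adjusted p = 0.188), by DESeq2 (adjusted p = 0.138) and at equal depth (edgeR adjusted p = 0.0567). Ddx11, a DNA helicase of sister chromatid cohesion, did not pass, at 153.1 ± 1.10 and 154.2 ± 0.939 CPM (95% interval -0.06 to 0.08, edgeR adjusted p = 0.844), though it was called with the GC and length trend removed. Nor did Dhx57, at 125.9 ± 3.06 and 125.1 ± 0.184 CPM (95% interval -0.09 to 0.07, edgeR adjusted p = 0.865).

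Genes of the same pathways outside the symbol rule were taken from 2 lists, the first of which includes DEAD box helicases of other names (Eif4a1, Eif4a2, Eif4a3 and D1Pas1). Of 21 other RNA helicases 19 were tested, of which 5 rose and 6 fell, with a median log2 fold change of 0.05, where 21.1% of all genes tested were called higher and 21.8% lower. The dsRNA nuclease Dicer1, whose protein carries a helicase domain, was the most abundant of them at 437.0 ± 0.864 CPM in Ctrl and 500.8 ± 0.938 CPM in Ell3 KD and rose by 0.20 ± 0.03 SE (edgeR adjusted p = 7.67e-06). Eif4a1, the helicase of cap-dependent translation, rose by 0.16 ± 0.04 SE (edgeR adjusted p = 0.00229) but was not called without Ell3 KD replicate 2 (edgeR adjusted p = 0.0533). Skiv2l, the helicase of the cytoplasmic exosome, fell by 0.43 ± 0.06 SE, from 41.2 ± 2.22 to 30.5 ± 1.26 CPM (edgeR adjusted p = 1.62e-06). Mov10, a helicase of mRNA decay and retroelement control, fell by 0.41 ± 0.11 SE (edgeR adjusted p = 0.00427) and was not called without Ctrl replicate 1 (edgeR adjusted p = 0.0788). Proteins that switch helicases on or hold them in complexes formed the second list, where 19 of 51 rose and 11 fell, with a median of 0.02. Among all genes at 5 CPM or more 27.2% were called higher and 25.3% lower. The exon junction complex gene Magoh rose by 0.35 ± 0.04 SE, from 94.3 ± 3.12 to 120.2 ± 2.16 CPM (edgeR adjusted p = 1.27e-07). Its copy Magohb (0.45 ± 0.07 SE, edgeR adjusted p = 1.27e-05) and their partner Rbm8a (0.15 ± 0.04 SE, edgeR adjusted p = 0.00142), singled out after their values were seen, also rose. Eif4a3 (0.05, edgeR adjusted p = 0.205) and Casc3 (-0.35, edgeR adjusted p = 0.0987), also of that complex and also singled out, did not pass. The splicing regulator Rbm5, a G-patch protein, fell by 0.44 ± 0.06 SE (edgeR adjusted p = 5.45e-07), and Eif4h, a cofactor of Eif4a1, fell by 0.20 ± 0.03 SE (edgeR adjusted p = 2.06e-05). Rbm17, the most abundant gene of the list at 436.3 ± 15.7 and 431.2 ± 11.3 CPM, did not pass (95% interval -0.08 to 0.05, edgeR adjusted p = 0.707).

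Most members could be counted without rivals. In 37 of the 48 no 150-base window of the transcript occurs in a transcript of another gene. Exons of Ddx39, Ddx41, Ddx43, Ddx49 and Ddx54 overlap genes on the opposite strand over more than 10% of their length, and the labels do not say whether the counting used strand. The partners of Ddx39 (Adgre5, 4 to 12 counts), Ddx49 (Homer3, 1 to 10 counts) and Ddx54 (Cfap73 and Gm43579, 0 counts) held few or no counts in any library. No counts are available here for Gm46416, the partner of Ddx41. Smaller overlaps can involve well-counted genes: Dhx32, called lower, overlaps Bccip over 4.89% of its exon length. Bccip held 1045 to 2306 counts and was called higher.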

How the data were processed

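Gene counts of 4 libraries (2 Ctrl, 2 Ell3 KD) were used. The authors deposited raw counts for each gene symbol. The submitters' processing notes name HISAT2 2.2.1.0, featureCounts, FastQC 0.11.5 and the build mm10. For the annotation, the strand setting and reads with several matches, settings are not given in the sources used here.

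Counts of all genes were fitted in R 4.3.3 with edgeR 4.0.16 (filterByExpr, TMM factors, glmQLFit, glmQLFTest, two-sided, no covariates). Benjamini-Hochberg adjustment ran over 17879 genes, with calls under 0.05. Standard errors were derived from each gene's F statistic. Levels per kb used the transcript with the longest coding sequence in GENCODE M21 (GRCm38), which may not be the form the oocyte uses. Alternatives were DESeq2 1.42.0, limma-voom (limma 3.58.1), upper-quartile scaling, no low-count filter, thinning to equal depth, an assumed spread, a replicate block and leaving out each library. Leaving out a library leaves a single one in its group, so a call can be lost there without a smaller change. Chi-square values of 4.08 and 4.17 per degree of freedom between libraries of a group exceeded counting noise.

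The members, roles, lists and the naming rule were chosen with earlier results of these data known. Values in each library are given for the 5 largest rises and 5 largest falls called at a mean of 5 CPM or more, for the 4 highest levels and for 4 paralog pairs, and for other called members. From each list the most abundant gene and the 2 calls of smallest p in each direction are named. Other genes are said to be singled out. On simulated counts of 17879 genes for Ell3 KD against Ctrl, 200 genes were changed. In these counts edgeR recovered 50% of 56 genes changed 1.25-fold and 57.3% of 75 changed 1.5-fold. At 5 CPM or more it recovered 77.8% of 36 and 97.3% of 37. The measured comparison called 42.9% of genes, a far larger share than was changed here, so these rates need not carry over to it.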

Additional observations from a re-analysis of the deposited data

How the results depend on the processing

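Counts of helicase genes called stayed within 1.5 times (9 higher, 15 lower) under the alternatives tried, except that DESeq2 called 5 higher and that an assumed coefficient of variation of 0.2 left 0 higher and 0 lower. Leaving out 1 library gave 6 to 7 higher and 10 to 15 lower. Over all genes the assumed coefficient gave 861 higher and 1103 lower. For the other RNA helicases called higher (5) the value was 3 with DESeq2, 3 at equal depth, 1 with the assumed coefficient and between 2 and 4 without 1 library. For those called lower (6) it was 2 with DESeq2, 0 with the assumed coefficient, 3 with the GC and length trend removed and between 2 and 5 without 1 library. Of the helicase cofactors 1 was called higher and 0 lower with the assumed coefficient, and between 6 and 11 were called lower without 1 library.

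The median log2 fold change of the members (-0.07) was -0.0921 at equal depth, 0.0008 with the GC and length trend removed and between -0.0834 and -0.0554 without 1 library. Among named genes, Ddx39b was above 0 with the GC and length trend removed (0.077) and ranged from -0.0514 to 0.0073 without 1 library. Ddx21 was at 0.0235 with that trend removed and ranged from -0.1194 to 0.0655, and Rbm17 from -0.0551 to 0.0175. None of these genes was called in any of these fits. The cause of these differences was not tested.

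The labels do not say whether equal replicate numbers in the titles pair libraries. Deviations of same-numbered libraries correlated at 0.055 over 9704 genes. With 2 libraries per group, so weak a correlation cannot show whether they share an animal or a batch. With the replicate block 9 members were higher and 17 lower, all 24 calls were kept, and Ddx51 and Ddx52 were added. Without Ctrl replicate 1 Dhx37 was added, and without Ctrl replicate 2 Ddx49 and Ddx51 were. The 95% intervals were widest for Dhx37, Ddx23, Ddx60 and Ddx54, which had 52 to 298 counts per library.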
